A study of Mus musculus with 6 samples.

Results

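The 39 genes described here act in G2 and mitosis, and were chosen by name. They come from 24016 genes measured in cells of the mouse esophageal epithelium that were sorted as basal (CD29high). All 39 had a row in the table. They fall into 8 function classes: chromosome proteins (2 genes), mitotic cyclins and Cdk1 (4), mitotic entry kinases (3), the chromosomal passenger complex (3), checkpoint and ubiquitin pathway genes (6), centromere and kinetochore genes (6), spindle genes (9), and midzone and cytokinesis genes (6). RNA was profiled in 6 libraries, 3 labelled Krt15-negative (CD29high GFP-) and 3 labelled Krt15-positive (CD29high GFP+). All 6 came from mice of 1 genotype, Krt15-CrePR1;R26mTomato/mGFP, given 1 mg of RU486 (mifepristone) and sorted 24 h later. In this system a Krt15 promoter drives a Cre recombinase that RU486 activates, and recombination switches a membrane reporter from Tomato to GFP. The GFP-negative group therefore holds every CD29high cell without recombination, whatever its Krt15 level. Krt15 mRNA did not separate the groups, at 2350, 6784 and 3412 FPKM in the libraries labelled Krt15-negative and 3350, 9692.5 and 2419.5 FPKM in those labelled Krt15-positive (difference 0.18, SE 0.48, limma adjusted p = 0.93). The names Krt15-negative and Krt15-positive are therefore used below for the GFP gates, not for the level of the gene. The age of the mice, and whether each library came from its own animal, are not given in the labels, so the spread between libraries may be technical in part.

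Mitosis is driven by cyclin-dependent kinase 1 bound to cyclins A and B. Polo-like and Aurora kinases build the spindle, kinetochores attach chromosomes to it, and the anaphase-promoting complex ends mitosis by marking cyclins and other regulators for degradation. Most of these genes are transcribed together late in the cell cycle and are silent in resting cells. In squamous epithelium such as the esophageal lining, cell division takes place mainly in the basal layer, and cells leave the cycle as they move upward.

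Promoter sequence played no part in the choice of these genes. Both elements described next were searched for because they are known from promoters of G2 and mitosis genes. A higher share among the members was therefore foreseen. The cell cycle genes homology region (CHR, here TTTGAA or TTCGAA on either strand) is known as a binding element of the DREAM complex, which represses it in resting cells, and of the B-MYB and FOXM1 activators in G2. The CCAAT box (CCAAT on either strand) is known as the element of the factor NF-Y. The promoters below run from 130 bases before to 30 bases after the RefSeq start (GRCm38.p6), 5′ to 3′ on the strand of the gene. Capitals mark CHR letters (TTTGAA, or TTCAAA on the other strand) and CCAAT boxes (CCAAT, or ATTGG on the other strand). They belong to the 4 genes of highest mean level among those with both elements, and show how the elements lie around the start:
Ube2c (chr2:164769799-164769958, plus strand): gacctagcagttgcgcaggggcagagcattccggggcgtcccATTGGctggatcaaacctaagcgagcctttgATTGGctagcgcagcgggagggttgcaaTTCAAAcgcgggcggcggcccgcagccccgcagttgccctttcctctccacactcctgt
Cdc20 (chr4:118437314-118437473, minus strand): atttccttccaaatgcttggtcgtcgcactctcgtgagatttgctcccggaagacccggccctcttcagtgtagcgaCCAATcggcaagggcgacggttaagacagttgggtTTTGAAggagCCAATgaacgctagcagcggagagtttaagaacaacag
Cenpa (chr5:30666756-30666915, plus strand): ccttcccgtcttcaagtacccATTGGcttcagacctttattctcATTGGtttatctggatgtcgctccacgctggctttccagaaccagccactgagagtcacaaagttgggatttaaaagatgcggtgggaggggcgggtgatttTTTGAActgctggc
Ccnb2 (chr9:70421525-70421684, minus strand): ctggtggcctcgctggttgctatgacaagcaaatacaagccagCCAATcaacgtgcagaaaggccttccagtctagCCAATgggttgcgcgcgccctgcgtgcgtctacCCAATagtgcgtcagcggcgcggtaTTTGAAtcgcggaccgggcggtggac

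Ube2c held 6 CCAAT boxes in the 300 bases searched (250 before to 50 after the start), of which the window above shows those starting at -88 and -57, and a CHR at -29. Ccnb2 held CCAAT boxes starting at -87, -54 and -21, and CHR letters at -167 and 5. Cdc20 held a CHR at -18 between CCAAT boxes at -53 and -8, and Cenpa a CHR at 17, after the start. The RefSeq table held promoters for 34 of the 39 genes, and Ccna2, Aurkb, Tpx2, Dlgap5 and Kif20a had no entry. A CHR was found for 27 of the 34 (79.4%), against 21.7% of 27025 genes of the table. Within 50 bases of the start, a cut not planned beforehand, 25 of the 34 held one (73.5%), against 6.12% of all genes. A CCAAT box was found for 26 (76.5%, against 41.1%), and 18 held 2 or more (52.9%, against 13.3%). Both elements stood in 1 promoter for 24 genes (70.6%, against 8.61%). Restricting the comparison to the 7051 other genes that passed the expression filter and had a promoter gave 16.3% with a CHR, 3.87% with a CHR within 50 bases of the start and 42.8% with a CCAAT box. A spacing chosen after the matches were seen, 2 CCAAT boxes that start 30 to 36 bases apart, occurred in 8 of the 34 (23.5%) and in 2.11% of all genes. Birc5, the member of highest mean level, held neither element in its window, and neither did Tacc3, Nusap1, Nuf2 and Melk. These are matches of letters and do not show that a factor binds.

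**Figure D1:**
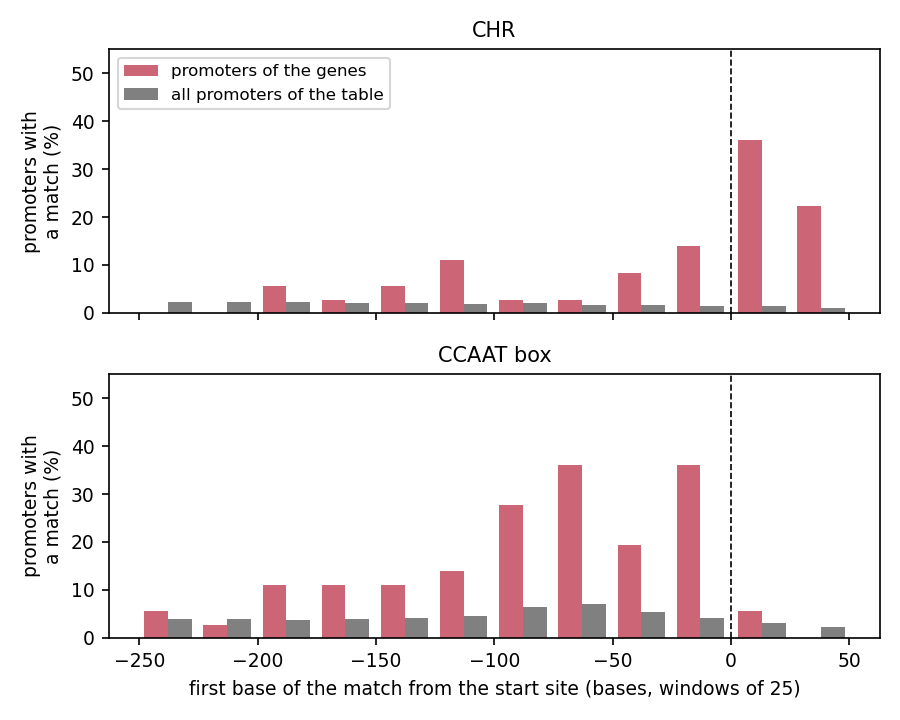
Share of promoters (%) with a CHR (top) or a CCAAT box (bottom) starting in each window of 25 bases, by distance from the start site, for 36 promoters of 34 G2 and mitosis genes (red) and all 32851 promoters of the RefSeq table (grey). CHR matches were most frequent from 1 to 25 bases after the start (36.1% of the red promoters against 1.43%), and CCAAT boxes from -75 to -51 and from -25 to -1 (36.1% in each).

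Expression is given as FPKM, fragments per kilobase of transcript scaled to the mapped fragments of the library, which allows levels of different genes to be compared per length. Estimated depth was 27.6 M to 42.1 M fragments per library. Between 3247 and 9194 genes reached 1 FPKM, and the lowest number belonged to the Krt15-negative replicate 1 library, which stood apart. All 10 basal keratinocyte markers (among them Krt5, Krt14 and Trp63) reached 1 FPKM in 5 libraries and 8 of them in Krt15-negative replicate 1. Of 10 fibroblast markers, 7, 8 and 9 reached it in Krt15-negative libraries, against 1, 2 and 1 in Krt15-positive libraries. Their summed level was 176 to 788 FPKM against 71.3 to 179 FPKM, and in the Krt15-positive libraries Col1a2, Pdgfra and Lum were listed at 0. Dcn did not follow the others and made up nearly all of the Krt15-positive sums, at 13.9, 267 and 457 against 167, 176 and 71.1 FPKM. Pdgfra was also listed at 0 in Krt15-negative replicates 1 and 2. Of 11 immune markers, 3, 8 and 6 reached 1 FPKM against 2, 6 and 4, with summed levels of 606 to 938.5 FPKM against 146 to 7316 FPKM. The highest sum came from Lyz2, at 7279 FPKM in Krt15-positive replicate 1, and Cd3e was listed at 0 in 5 libraries. Of 10 markers of endothelium, muscle and melanocytes, at most 2 reached 1 FPKM, and their sum was at most 11 FPKM in Krt15-negative and 11.3 FPKM in Krt15-positive libraries. Suprabasal markers had summed levels of 9338 to 38042 FPKM against 8971 to 53187 FPKM. The basal markers summed to less in every library, at 3960 to 11138 FPKM against 3898.5 to 14138 FPKM. Krtdap was the largest part of the suprabasal sums in 5 libraries and was listed at 0 in Krt15-negative replicate 3. Rhcg was listed at 0 throughout, and Ivl and Krt1 reached at most 0.018 and 2.26 FPKM. Among 16 genes that every cell uses, Tbp was listed at 0 in Krt15-negative replicates 1 and 2, and Polr2a stood at 0.0058, 0.010 and 0.018 against 5.17, 1.00 and 1.49 FPKM, so a listed 0 or a value near it is not read as absence of the RNA. What these other cells contribute to the values below was not tested. In bulk RNA, fewer dividing cells and less RNA per dividing cell cannot be told apart.

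The G2 and mitosis genes differed more between libraries than between the groups. In the Krt15-negative libraries 12, 30 and 34 of the 39 reached 1 FPKM, and in the Krt15-positive ones 23, 38 and 20. Their median level was 0.019, 11.8 and 8.57 FPKM against 2.197, 14.5 and 1.35 FPKM. The Krt15-positive replicate 2 library was thus the fullest, with 17 of the 39 genes at their highest there, and the groups overlapped. The other Krt15-positive libraries held the highest value of no member. The sum over the 39 genes gave another order, at 1433, 1294 and 1023.5 FPKM for Krt15-negative libraries against 349, 1384 and 291 FPKM. In Krt15-negative replicate 1 the sum came from few genes, since Ube2c alone stood at 723 FPKM there. Ranked among the 9423 genes tested within each library, the median member lay at percentile 56.1, 57.4 and 60 in Krt15-negative libraries, against 29.5, 59.1 and 33.5 in Krt15-positive libraries. In Krt15-negative replicate 1 that rank rests on a median tested gene of only 0.017 FPKM, against 6.13 to 10.6 FPKM in the other libraries.

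**Figure D2:**
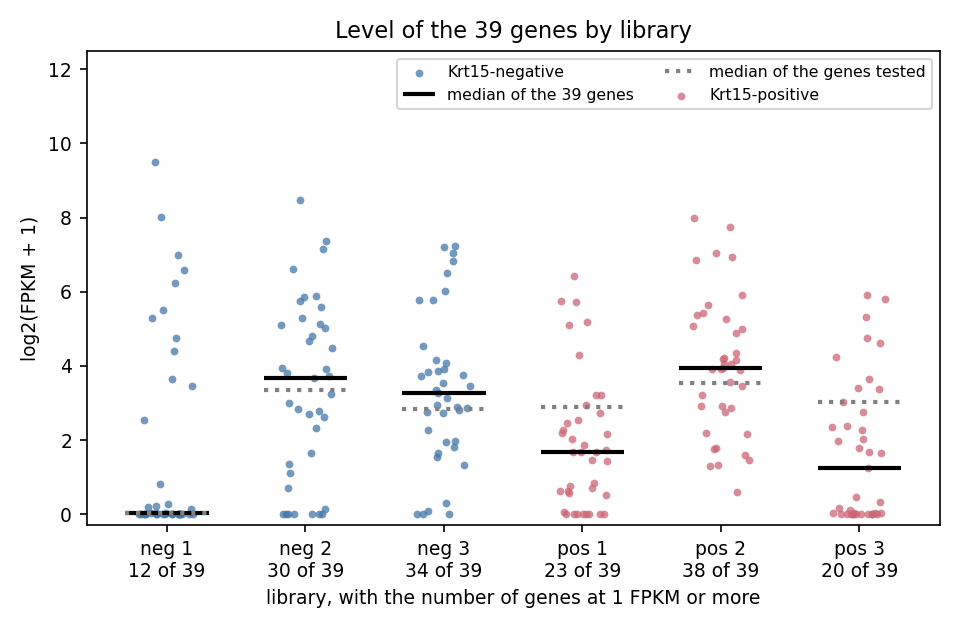
Level of each of the 39 genes (points, log2(FPKM + 1)) in the 6 libraries, with their median (black bar) and the median of the 9423 genes tested (dotted bar). The medians of the 39 genes reached 3.68, 3.26 and 3.95 in Krt15-negative replicates 2 and 3 and Krt15-positive replicate 2, and 0.027, 1.68 and 1.24 in the other libraries.

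Values of a single gene often differed widely between libraries. Of the 234 values (39 genes in 6 libraries), 161 corresponded to an estimated 100 fragments or more, 42 were listed at 0 or under 0.001 FPKM, and 17 corresponded to 4 to 99 fragments. The remaining 14 were worth fewer than 3.5 fragments, and all 14 lay within 0.1 of a whole number of fragments when multiplied by transcript length and estimated depth. Of these, 10 were single fragments. Values such as 0.011 or 0.015 FPKM therefore stand for 1 fragment. Only 7 genes reached 1 FPKM in all 6 libraries: Top2a, Ccnb1, Birc5, Cdc20, Cdca3, Cenpa and Prc1. The heatmap of the genes by class shows this patchwork.

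**Figure D3:**
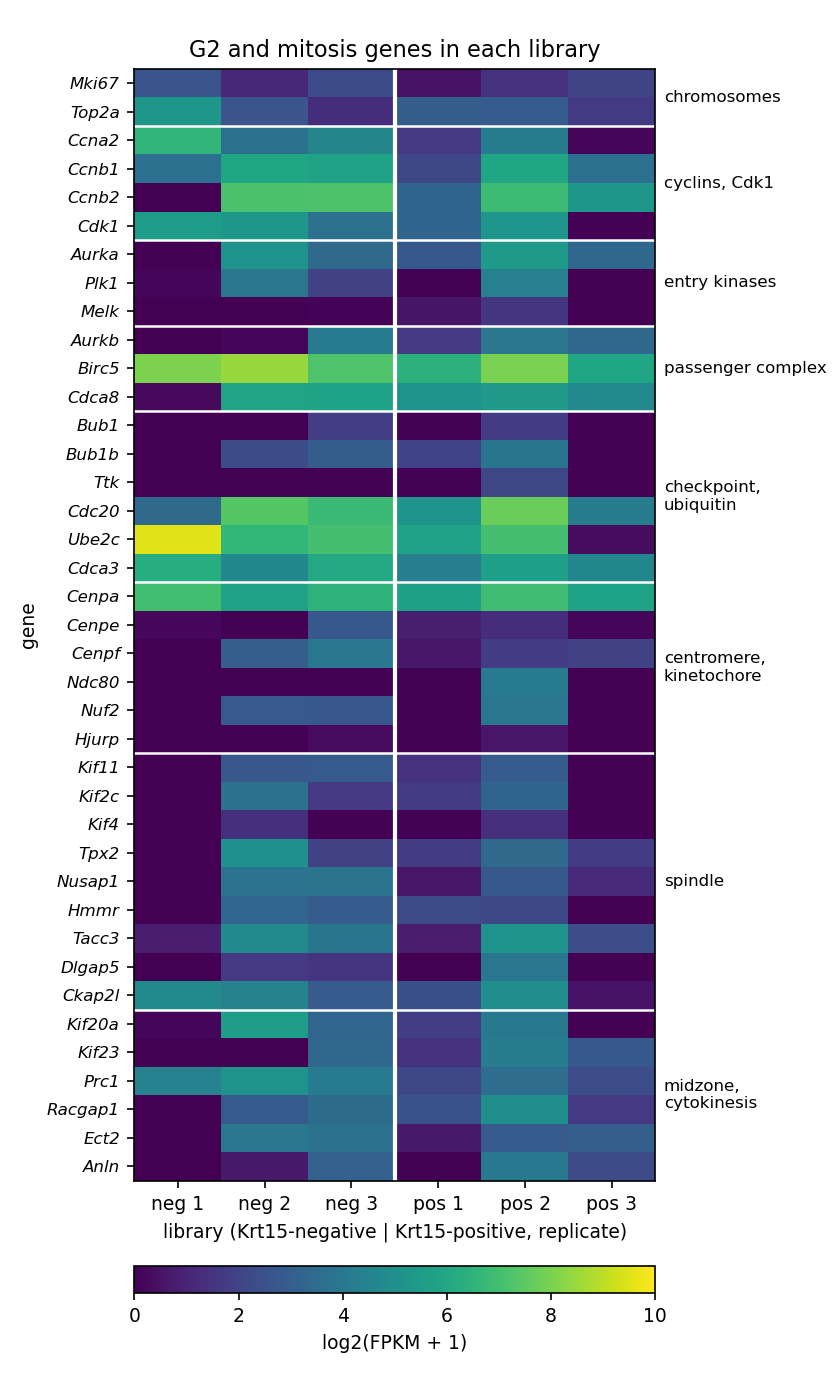
Level of the 39 genes (rows, grouped by function class) in the 3 Krt15-negative and 3 Krt15-positive libraries (columns), as log2(FPKM + 1) from 0 (dark) to 10 (yellow). Krt15-negative replicate 1 holds 17 genes listed at 0 next to Ube2c at 723 FPKM, and Krt15-positive replicate 2 holds none at 0.

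Whether these genes differed between the Krt15-positive and Krt15-negative libraries was tested with limma on log2(FPKM + 1) over all genes averaging 1 FPKM or more, and differences below are Krt15-positive minus Krt15-negative on that scale. No gene of 9423 (0%) passed an adjusted p of 0.05. At an unadjusted p below 0.05 limma had 370 genes, of which 300 (3.18%) were higher and 70 (0.743%) lower in the Krt15-positive group, and among the members 1, Ube2c, with the lower level in the Krt15-positive group (adjusted p = 0.79). Of the 39 members 34 passed the filter, and Melk, Bub1, Ttk, Hjurp and Kif4 did not. Over the 34, the median difference was -0.40 and 23 were below 0, where the median over all genes tested was 0.63 and 31.4% of genes were below 0. Over all 39 members the median was -0.27, with 25 below 0 and 14 above. The member median turned above 0 when Krt15-negative replicate 2 was dropped (0.16), when Krt15-positive replicate 3 was (0.11) and without both replicate 3 libraries (0.12), and fell to -1.12 without Krt15-negative replicate 1, where the median over all genes was 0.03. It was also -0.98 without Krt15-positive replicate 2. Groups that did not overlap were seen for 2 of the 34, Prc1, lower in Krt15-positive libraries as were 2.44% of all genes, and Ndc80, higher as were 8.85%.

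**Figure D4:**
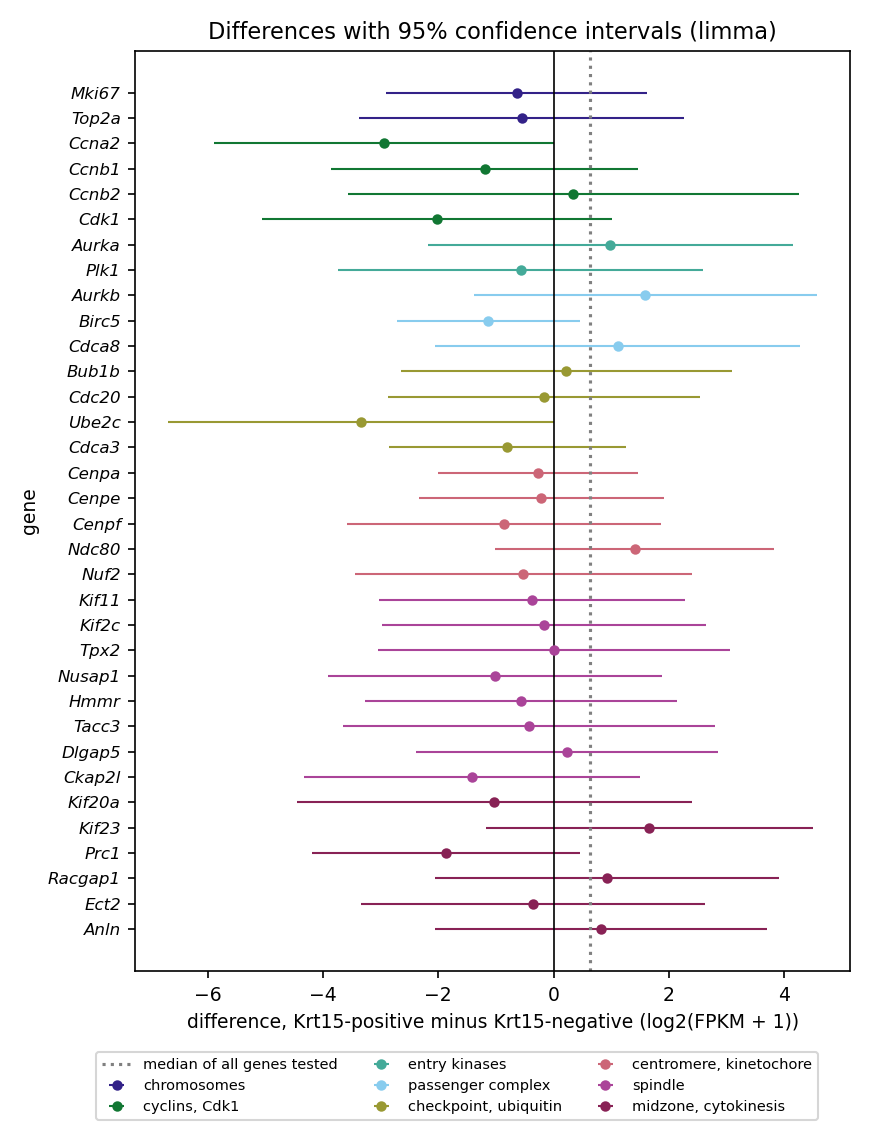
Difference between the groups for the 34 genes tested (points, log2(FPKM + 1), Krt15-positive minus Krt15-negative) with 95% confidence intervals from limma, coloured by function class; the dotted line marks the median of all genes tested, 0.63. The intervals reach or cross 0 for every gene but Ube2c, whose upper bound is -0.0015.

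Cyclins and Cdk1 came at high levels and in unequal combinations. Ccnb2, cyclin B2, stood at 0, 141 and 146 FPKM in GFP-negative and 8.23, 115 and 38.6 FPKM in GFP-positive libraries. It was highest in Krt15-negative replicates 2 and 3 and listed at 0 in replicate 1, so that the groups overlapped (difference 0.34, SE 1.78, limma adjusted p = 0.96). Ccnb1, cyclin B1, the main partner of Cdk1 at mitotic entry, stood at 11.6, 58.4 and 53.7 against 3.49, 59.1 and 11.5 FPKM. Its difference was -1.20 (SE 1.22, limma adjusted p = 0.81), and ranged from -2.20 without Krt15-positive replicate 2 to -0.33 without Krt15-positive replicate 1. Ccna2, cyclin A2, which acts from S phase into early mitosis, stood at 94.6, 11.8 and 22.4 against 2.19, 17.2 and 0.085 FPKM. Cdk1 itself stood at 44.6, 38 and 12.6 against 8.29, 37.3 and 0.023 FPKM, the last being worth 3.05 fragments. The Krt15-positive replicate 3 library thus had Ccnb2 and Ccnb1 at 10 FPKM or more and Cdk1 and Ccna2 listed near 0. In contrast, Krt15-negative replicate 1 had Cdk1 and the highest Ccna2 of the 6 libraries with Ccnb2 listed at 0. Values at or near 0 are not read here as absence of the RNA. With 3 of the 4 genes below 0, the median difference of this class was -1.61. Untested members included, class medians were above 0 for the passenger complex (1.11), entry kinases (0.69) and midzone and cytokinesis genes (0.23). They were below 0 for chromosome proteins (-0.60), checkpoint and ubiquitin genes (-0.086), centromere and kinetochore genes (-0.24) and spindle genes (-0.38).

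Among the kinases of mitotic entry, Aurka reached 1 FPKM in 5 libraries, Plk1 in 3 and Melk in 1. Aurka, Aurora A, which matures centrosomes, stood at 0.019, 33.7 and 10.04 FPKM in Krt15-negative and at 5.68, 41.9 and 9.50 FPKM in Krt15-positive libraries. It was near 0 in 1 library, Krt15-negative replicate 1, where it was worth 1.03 fragments, and its difference of 0.98 (SE 1.44, limma adjusted p = 0.86) turned to -0.44 without that library. Plk1, Polo-like kinase 1, stood at 0.144, 14.1 and 2.91 against 0, 19.4 and 0.015 FPKM, and was above 1 FPKM in both replicate 2 libraries and in Krt15-negative replicate 3. Its difference was -0.57 (SE 1.45, limma adjusted p = 0.93). Melk, a kinase that marks proliferating cells, reached 1 FPKM in Krt15-positive replicate 2 alone, at 2.02 FPKM.

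The chromosomal passenger complex, which corrects chromosome attachments and directs cytokinesis, held the most abundant member. Birc5, survivin, stood at 259, 352 and 150 FPKM in GFP-negative libraries (254 ± 101, SD, n = 3) and 85.6, 251 and 59.6 FPKM in GFP-positive ones (132 ± 104, SD, n = 3). The Krt15-positive replicates 1 and 3 lay below every Krt15-negative library, and replicate 2 lay between them. The difference was -1.13 (SE 0.73, limma adjusted p = 0.79), and it was -1.73 without Krt15-positive replicate 2. Cdca8, borealin, stood at 0.199, 56.7 and 54.2 against 33.4, 40.3 and 26 FPKM. The Krt15-positive values were even, and Krt15-negative replicate 1 was worth 9.35 fragments. Its difference of 1.11 (SE 1.45, limma adjusted p = 0.84) turned to -0.74 without that library. Aurkb, Aurora B, the kinase of the complex, stood at 0, 0.112 and 15.8 against 2.197, 14.5 and 9.36 FPKM, above 2 FPKM in all Krt15-positive libraries and in 1 Krt15-negative one. Birc5 was thus found in libraries where its kinase partner was listed at 0 or near it, which is not read as absence of Aurkb.

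The chromosome proteins followed another order of libraries. Top2a, topoisomerase II alpha, which untangles sister chromatids, stood at 37.9, 5.14 and 1.4995 FPKM against 6.76, 6.57 and 2.21 FPKM. It was highest in Krt15-negative replicate 1, the library with the fewest members detected, and its difference of -0.55 (SE 1.28, limma adjusted p = 0.91) turned to 0.55 without it. Mki67, the antigen Ki-67 that coats mitotic chromosomes, stood at 4.83, 1.17 and 3.80 against 0.419, 1.77 and 3.12 FPKM. It was low everywhere, with a difference of -0.64 (SE 1.03, limma adjusted p = 0.88), and the groups overlapped. Across the 6 libraries the level of Mki67 had a Pearson r of -0.15 with the mean of the other tested members, and Top2a one of -0.36. These were the only negative values among the 34 genes tested. Each point is 1 library, the genes share the same 6 libraries, and these values are descriptions.

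Mean levels in the checkpoint and ubiquitin class ran from 0.589 FPKM for Ttk to 189 FPKM for Ube2c. Ube2c, the ubiquitin-conjugating enzyme of the anaphase-promoting complex, whose promoter is shown above, stood at 723, 97.2 and 131 FPKM in Krt15-negative libraries (317 ± 352, SD, n = 3). In Krt15-positive libraries it stood at 53, 131 and 0.252 FPKM (61.4 ± 65.7, SD, n = 3). Krt15-negative replicate 1 and Krt15-positive replicate 3 were the extremes, and the groups overlapped through Krt15-positive replicate 2. The difference was -3.35 (SE 1.53, limma adjusted p = 0.79), and -1.32 without Krt15-positive replicate 3. Cdc20, which activates the same complex, stood at 9.99, 165 and 112 against 35.4, 214 and 17.8 FPKM. Unlike Ube2c it was lowest in Krt15-negative replicate 1, and its difference of -0.16 (SE 1.24, limma adjusted p = 0.98) turned above 0 under 5 of the libraries or pairs of libraries left out. Cdca3, an adaptor that promotes mitotic entry, was present throughout at 74.1, 24.7 and 64.4 against 18.6, 48.6 and 23.3 FPKM. The spindle checkpoint genes were much lower. Bub1b, which encodes BubR1, stood at 0, 4.03 and 6.63 against 3.08, 13.8 and 0.0089 FPKM (the last is worth 0.99 fragments). Bub1, a checkpoint kinase at the kinetochore, reached 2.52 FPKM in Krt15-negative replicate 3 and 2.45 FPKM in Krt15-positive replicate 2 and was listed at 0 elsewhere. Ttk, the kinase Mps1, was above 0 in Krt15-positive replicate 2 alone, at 3.53 FPKM.

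In the centromere and kinetochore class 1 gene was even across libraries and the rest were patchy. Cenpa, the centromeric histone H3 variant, stood at 126, 53.3 and 90.6 FPKM (90.1 ± 36.5, SD, n = 3) against 51.6, 122 and 54.7 FPKM (76.1 ± 39.7, SD, n = 3). The groups overlapped fully, with a difference of -0.27 (SE 0.79, limma adjusted p = 0.94). Cenpf, a large kinetochore protein of late G2, stood at 0, 7.05 and 14.2 against 0.554, 2.36 and 2.91 FPKM. Its difference was -0.86 (SE 1.24, limma adjusted p = 0.86), and -2.02 without Krt15-negative replicate 1 but -0.054 without Krt15-negative replicate 3. Ndc80 and Nuf2 form the microtubule-binding complex of the kinetochore. Nuf2 stood at 0, 5.85 and 5.63 against 0, 14.1 and 0.014 FPKM, and of all tested members its pattern was nearest to the mean of the others (Pearson r 0.995 over the 6 libraries). Ndc80 stood at 0, 0.011 and 0 against 0.033, 16.8 and 0.015 FPKM. Although its groups did not overlap, 5 of its 6 values were worth 0 to 2.03 fragments, and Krt15-positive replicate 3 and Krt15-negative replicate 2 each held about 1 (1.01 and 1.02), so their order rests on single fragments. Ndc80 was thus above 3 fragments in 1 library only, where Nuf2 was highest too. Cenpe, a kinetochore motor, ranged from 0 to 5.76 FPKM, and Hjurp, the chaperone that loads Cenpa, never passed 0.526 FPKM.

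Of the 9 spindle genes, 1, 9 and 8 reached 1 FPKM in Krt15-negative libraries, against 5, 9 and 3 in Krt15-positive libraries. The gene that reached it in Krt15-negative replicate 1 was Ckap2l, a spindle-associated protein, at 25.8, 21.4 and 6.22 against 4.49, 28.8 and 0.389 FPKM (difference -1.42, SE 1.33, limma adjusted p = 0.79). The difference was -2.56 without Krt15-positive replicate 2 and -0.35 without Krt15-positive replicate 3. Ckap2l was highest in Krt15-positive replicate 2 and lowest in Krt15-positive replicate 3. Tacc3, which stabilizes spindle microtubules, stood at 0.743, 26.8 and 13.7 against 0.706, 32.9 and 4.15 FPKM, with a difference of -0.42 (SE 1.47, limma adjusted p = 0.95). Both replicate 1 libraries were alike and low. Tpx2, the activator of Aurora A, stood at 0, 31.5 and 2.86 against 2.29, 10.1 and 2.47 FPKM. Its highest library, Krt15-negative replicate 2, was 1 of the 2 highest for Aurka. Nusap1, a microtubule bundler, stood at 0, 12.96 and 13.4 against 0.537, 5.75 and 1.35 FPKM. Kif11, the motor that separates the poles, stood at 0, 5.54 and 6.07 against 1.76, 6.61 and 0.0067 FPKM, the last worth 0.98 fragments. Kif2c, a microtubule depolymerase, ranged from 0 to 12.2 FPKM and Hmmr, a spindle assembly factor, from 0 to 8.50 FPKM, both highest in Krt15-negative replicate 2. Dlgap5, a spindle stabilizer, was highest in Krt15-positive replicate 2 at 14 FPKM and at most 2.15 FPKM elsewhere. Kif4, a chromosome-borne motor, reached 1.535 FPKM at most. In this class, the untested Kif4 included, 7 of 9 differences were below 0, with a median of -0.38.

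Midzone and cytokinesis genes split by library and by gene. Prc1, which bundles the antiparallel microtubules of the midzone, stood at 20.3, 33.7 and 17 FPKM in Krt15-negative libraries (23.7 ± 8.81, SD, n = 3). In Krt15-positive libraries it stood at 3.53, 10.8 and 4.16 FPKM (6.16 ± 4.02, SD, n = 3). It was above 1 FPKM in all 6 libraries and every Krt15-positive value lay below every Krt15-negative one. The difference was -1.87 (SE 1.07, 95% CI -4.20 to 0.47, limma adjusted p = 0.79). It stayed between -2.29 and -1.59 when any library, or both libraries of a number, was left out, and did not pass the test in any setting. Kif20a, a kinesin that carries the passenger complex to the midzone, stood at 0.099, 47.2 and 8.57 against 2.63, 15.4 and 0 FPKM (difference -1.03, SE 1.56, limma adjusted p = 0.87). Kif23 and Racgap1 form the centralspindlin complex that positions the cleavage furrow. Kif23 stood at 0.030, 0 and 9.28 against 1.70, 17.5 and 5.75 FPKM, and Racgap1 at 0.024, 6.18 and 10.5 against 4.799, 30.9 and 2.17 FPKM. Both were highest in Krt15-positive replicate 2 and near 0 in Krt15-negative replicate 1. Ect2, the exchange factor that centralspindlin recruits, stood at 0.0086, 14.3 and 12.3 against 0.635, 6.27 and 7.17 FPKM. Anln, anillin, a scaffold of the contractile ring, stood at 0, 0.643 and 7.80 against 0, 15.6 and 3.84 FPKM. The class had 3 differences above 0 and 3 below.

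Among themselves the 34 tested members gave 561 pairs, of which 80.2% had a Pearson r above 0 over the 6 libraries, with a median of 0.46. Pairs of other genes were not computed, so these values do not show that members vary together more than other genes do. After Nuf2, Cdc20 (0.95), Plk1 (0.94) and Kif11 (0.93) followed the mean of the other members most nearly, while Cdca3 (0.25), Ube2c (0.26), Ccna2 (0.27) and Cenpa (0.28) followed it least among those above 0. Over 3792 further genes of average log2 value 3 or more, the median r with the member mean was 0.41. The 10 non-members of highest r were Blmh (0.99), Ptpn1 (0.98), Eci1 (0.98), Gm12070 (0.96), Gm6682 (0.96), Psmc3 (0.96), Rab8a (0.95), Anxa2 (0.95), Tra2b (0.95) and Cops6 (0.94). None of them is on the lists of cell cycle genes used here. They are the top of a ranking of 3792 genes over 6 libraries, so their r does not show a link with the members. The 10 further G2 and mitosis genes in that set had a median r of 0.49. Of these, 1 had an r above 0.8, as did 3.88% of all.

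Other genes of the cycle were read from lists. Of 55 further G2 and mitosis genes, 54 had a row and 37 were tested. None passed the limma test, 20 lay below 0 and 17 above, and the median difference was -0.05 against 0.63 for all genes. At 1 FPKM or more stood 38 in Krt15-negative replicate 3 and 44 in Krt15-positive replicate 2, with 13 and 24 in the other Krt15-negative libraries and 20 and 15 in the other Krt15-positive ones. The highest were Stmn1, stathmin (416, 1075 and 997 against 325, 871 and 687 FPKM), Tubb4b, a tubulin (189, 435 and 316 against 213, 293 and 372 FPKM), and Pttg1, securin (483, 247 and 216 against 126, 182 and 199 FPKM). Pttg1 was lower in every Krt15-positive library than in any Krt15-negative one, with a difference of -0.83 (SE 0.59, limma adjusted p = 0.79). Groups that did not overlap were seen for 3 of the 37 in all, 2 lower (Pttg1 and Cks2) and 1 higher, beside 2.44% and 8.85% of all genes. The higher one, Psrc1, stood at 0, 0 and 2.10 against 4.71, 9.18 and 4.93 FPKM (difference 2.27, SE 1.03, limma adjusted p = 0.79). It was the only gene of this list under an unadjusted limma p of 0.05, and it and Cks2 were named after their values were seen.

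The anaphase-promoting complex is present in cells whether they divide or not. Of its 16 genes with associated factors, 13 lay above 0 and 3 below, with a median of 0.80, and none passed the test. Its most abundant gene, Anapc13, was even at 942.5, 545 and 860 against 822, 594.0 and 559.5 FPKM. The small subunits Cdc26 (419, 166 and 192 against 117, 141 and 280 FPKM) and Anapc16 (238, 49.6 and 74.3 against 58.7, 65.9 and 31.3 FPKM) followed in level. These 3 most abundant genes were the 3 whose difference lay below 0 (-0.23, -0.50 and -0.94). The genes of the DREAM complex, E2F and NF-Y families and Foxm1 numbered 16 tested of 23, with 7 below 0, a median of 0.42 and none past the test. Foxm1, the activator of the G2 program, was listed at 0 in 3 libraries and stood at 6.41 FPKM in Krt15-negative replicate 3, 2.97 FPKM in Krt15-positive replicate 2 and 0.0075 FPKM in Krt15-positive replicate 3. The 2 libraries with more than 1 FPKM of Foxm1 were those with most members at 1 FPKM or more. By median level the order differed. Krt15-negative replicate 2, with Foxm1 listed at 0, had a higher member median than Krt15-negative replicate 3 (11.8 against 8.57 FPKM). Mybl2, which encodes B-MYB, never passed 0.389 FPKM. The most abundant of the list were Lin37, a DREAM subunit (0.038, 33.9 and 55.01 against 45.5, 58.4 and 31.7 FPKM), Nfyc, a subunit of NF-Y (0, 80.8 and 20.9 against 9.29, 16.7 and 19.4 FPKM), and Tfdp1, the partner of E2F factors (19.9, 30.5 and 13.2 against 21.6, 46.9 and 4.90 FPKM). In the S phase list 28 of 33 genes were tested, 9 below 0 and 19 above, with a median of 0.38 and none past the test. Pcna, the replication clamp, stood at 78.8, 119 and 43.8 against 111, 90.9 and 79.8 FPKM, and Tk1, thymidine kinase, at 55.8, 47.3 and 56.1 against 35.8, 50.1 and 0 FPKM. Slbp, which binds histone mRNA, stood at 0, 41.2 and 37.4 against 64.3, 38.6 and 14.1 FPKM. S phase genes reached 1 FPKM for 10, 25 and 20 of 33 against 25, 31 and 14, so Krt15-positive replicate 1 held as many as Krt15-negative replicate 2 while it held fewer members (23 against 30). Of 13 G1 cyclins, kinases and inhibitors, 10 were tested, 8 of them above 0, and none passed. Cdkn1a, the inhibitor p21, stood at 39.4, 79.4 and 137 against 83.5, 141 and 341 FPKM. It was highest in Krt15-positive replicate 3, where 20 of the 39 members reached 1 FPKM. Its lowest value was in Krt15-negative replicate 1, where 12 members did. Cdk4, a G1 kinase, stood at 78.5, 194 and 109.7 against 109, 294 and 137 FPKM, and its partner Ccnd2, cyclin D2, at 0.334, 55.6 and 50.5 against 84.0, 46.8 and 44.4 FPKM.

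**Figure D5:**
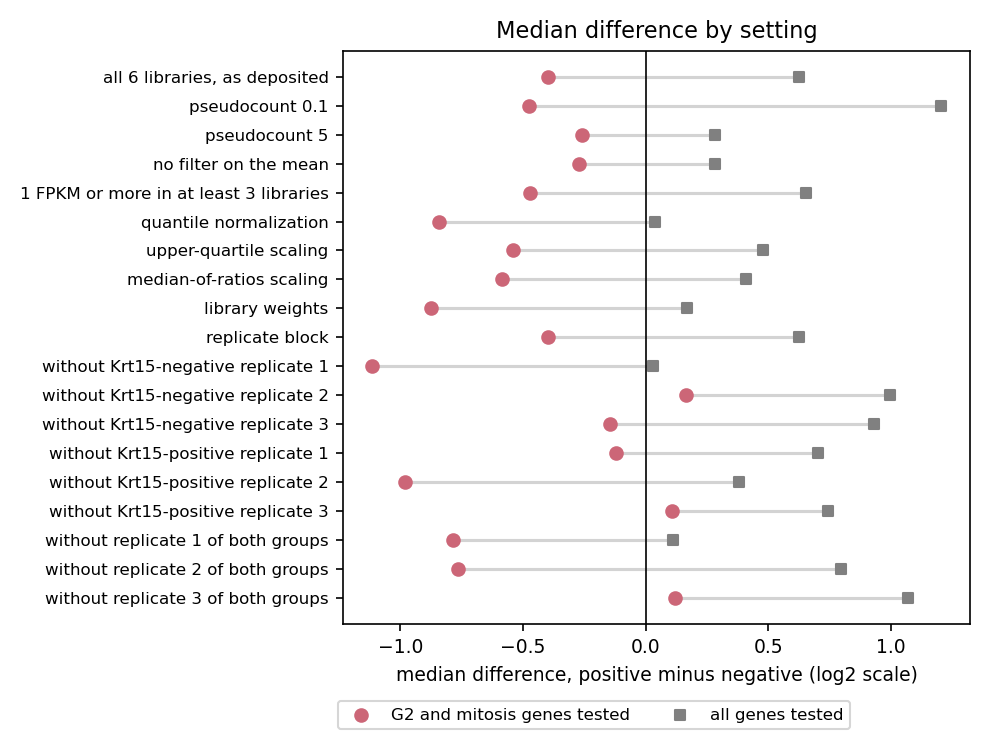
Median difference (Krt15-positive minus Krt15-negative, log2 scale) of the G2 and mitosis genes tested (circles) and of all genes tested (squares) under each way of processing or leaving out libraries. The circles lie left of the squares in every setting, but move from -1.12 to 0.16 and cross 0 in 3 of them.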

How the data were processed

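The 6 libraries were made directly from sorted cells by SMART-Seq v4 chemistry, per the labels' protocols; this chemistry does not mark strand. The build mm9 and the tools Cufflinks 2.2.1, STAR 2.5 and DESeq2 are named, without roles, per the submitters' processing notes. Annotation and filters: not given in the sources used here. The authors deposited 1 FPKM value per gene and library (24043 rows), in a table titled as counts although the values are not whole. Rows whose symbol a spreadsheet had turned into a date (27) were left out.

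Alternatives were other pseudocounts, filters and scalings, library weights, a replicate block and libraries left out. Values were analysed as log2(FPKM + 1), so differences of low genes are understated. The 9423 genes averaging 1 FPKM or more entered limma 3.58.1 (R 4.3.3) with all 6 libraries (mean-variance trend, group as the only term, Benjamini-Hochberg adjustment over all genes tested, threshold 0.05). The fit was also run on simulated data, with a smaller spread between libraries than the members show and no genes of low mean level. That run therefore does not show how well the fit finds differences among these members. Depth was estimated from the single-fragment step in FPKM times transcript length (GENCODE M21, genes with 1 transcript of at least 1500 bp), and fragments per value from it; no counting intervals are given, since the authors' effective lengths are not known. Values under 0.001 FPKM were counted as listed at 0. Promoters are RefSeq's (GRCm38.p6); no coordinates of the files' build were used.

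By rule, FPKM per library was given for the members, with differences and tests for the 2 members of highest mean FPKM in each class, the 3 highest genes of each further cell cycle list, and the 10 non-members most like the member mean. Foxm1, Mybl2, Psrc1, Cks2, the marker genes given singly and the CCAAT spacing were picked after their values were seen. The counts of a CHR within 50 bases of the start, of 2 or more CCAAT boxes and of both elements in 1 promoter were not planned beforehand. Members and lists were chosen with earlier results of these data known. The marker and cell cycle lists hold 1 symbol, Knstrc, with no row.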

Additional observations from a re-analysis of the deposited data

How the results depend on the processing

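The 16 members with a stated difference were refitted under up to 18 alternatives each, 287 values in all. None passed an adjusted p of 0.05, and 30 of the 287 changed sign. Birc5, Ccnb1, Cenpf, Ckap2l, Prc1 and Ube2c kept their sign in all alternatives, but not their size: with 1 library left out, Ccnb1 ranged from -2.20 to -0.33, Ckap2l from -2.56 to -0.35, Cenpf from -2.02 to -0.054 and Ube2c from -4.68 to -1.32. A pseudocount of 5 turned Ccnb2 to -0.22, quantile normalization turned Aurka to -0.011, and library weights turned Top2a to 0.87, Ccnb2 to -1.77 and Cdca8 to -0.39. With 1 library left out, the differences ranged from -1.43 to 0.55 for Top2a, -1.06 to -0.22 for Mki67, -2.05 to 1.55 for Ccnb2, -0.44 to 2.11 for Aurka, -2.02 to 0.38 for Plk1, -0.74 to 2.05 for Cdca8, -1.37 to 0.58 for Cdc20, -0.67 to 0.013 for Cenpa, -1.60 to 0.56 for Tacc3 and -2.46 to 0.27 for Kif20a. Without both libraries of number 1, Top2a was 0.33, Mki67 0.064, Ccnb2 -1.09, Cdca8 -0.76 and Cenpa 0.23. Without both of number 3, Plk1 was 0.12, Cdc20 1.05, Tacc3 0.13 and Kif20a 0.087. The cause of these turns was not tested.

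Over all genes, limma called 8 with library weights and 0 to 1 with libraries left out, where 1 was called without Krt15-negative replicate 2; none was a member. The smallest adjusted p of a member in any setting was 0.52. The member median moved between -1.12 and 0.16 with libraries left out, and was -0.84 with quantile normalization, where the median of all genes moved to 0.04. The replicate block (the number in the labels as a second term) called 0 genes and left the member median at -0.40, with 2 members at an unadjusted p below 0.05. The numbers were not taken as pairing: deviations of same-numbered libraries correlated at 0.13, 0.17 and 0.0089 over the genes tested, and Krt15-negative replicate 3 correlated best with another number. Over the 34 members tested alone they correlated at 0.41, 0.15 and 0.53, and each library correlated best with its own number, a hint from the data. The sample names of a number also share a code. The labels do not explain that code, so whether the libraries were paired is not known. Between libraries of the same number, 14 of the 39 members (35.9%) were lower in Krt15-positive at number 1, 13 (33.3%) at number 2 and 36 (92.3%) at number 3. Over all genes tested the shares were 22.5%, 40.5% and 50.5%. The 39 include the members that were not tested, and 6 members were equal at number 1. The 14 values worth fewer than 3.5 fragments rest on very few fragments, and why they were so low was not tested.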
